A study of Komagataella phaffii with 26 samples.

Results

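*PCK1*, *FBP1*, *GUT1* and *JEN1* of *Komagataella phaffii*, the genes that let this yeast build sugar from smaller carbon sources, phosphorylate glycerol and take up lactate, were followed across 12 groups of cultures grown on glycerol or glucose. They are 4 of the 5040 genes in the deposited expression table, chosen by their names in the authors' gene list, and all 4 passed the filter on low values. That list holds only the genes the authors called changed after alkalinization in at least one condition of these samples. Their changes after the pH shift are for that reason a description of genes already picked for changing. The contrast between glucose and glycerol was not a stated criterion of that list, although the list gives its value at time zero. The changes that led to the list were taken from the same time zero libraries that this contrast uses. The study also used genes of this kind as examples of the carbon source difference before stress in these samples, so that contrast is not independent evidence either.

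Yeasts growing on lactate have to make glucose 6-phosphate for cell wall and storage sugars by running part of glycolysis backwards, and *PCK1* and *FBP1* encode the dedicated enzymes of that route. Phosphoenolpyruvate carboxykinase, the *PCK1* product, turns oxaloacetate into phosphoenolpyruvate, and fructose-1,6-bisphosphatase, the *FBP1* product, removes a phosphate that phosphofructokinase adds in glycolysis. *GUT1* encodes glycerol kinase, the entry step of glycerol use, and *JEN1* a plasma membrane carrier that brings lactate in together with protons. In *Saccharomyces cerevisiae* glucose represses the transcription of all of them.

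The 26 RNA-seq libraries came from the wild-type strain X-33 in rich YP medium with glycerol or glucose as the added carbon source. Cells were spun down and moved to fresh TAPS-buffered medium, at pH 5.5 for the control sampled at once (time zero) and at alkaline pH for cultures sampled after 15, 30 and 60 min. Glycerol cultures went to pH 8.0 or 8.2 and glucose cultures to pH 8.0, with 2 libraries at each time of each course except for 4 at 15 min on glycerol at pH 8.0. No later sample at pH 5.5 was analysed here, so the pH shift and the transfer to fresh medium cannot be told apart. Each stressed culture gave the 3 later samples, and the labels do not say which libraries share a culture, so p-values measure the spread between libraries.

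Read totals recovered from the table ran from 16.31 M to 20.35 M per library with a median of 18.57 M, and 92.41 to 93.85% of them lay in genes. Values are RPKM, read counts scaled by gene length and by the mapped reads of the library. Differences are on the log2(RPKM + 1) scale with their standard error (SE), a scale that understates changes of low values such as those of *JEN1*. A gene passed the test when its limma p-value, adjusted by the Benjamini-Hochberg method over the 5034 genes kept, was under 0.05. The library codes of the 10 glycerol libraries of the pH 8.0 course begin with another letter than those of the other 16. In comparisons across these sets the code and the condition cannot be told apart. RNA was measured in bulk, so fewer cells that carry a transcript and less transcript per cell cannot be told apart.

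The genes lie apart from one another in the ASM2700v1 assembly, and no annotated gene model overlaps them. *PCK1* (PAS_FragB_0061) is on chromosome 1 from 2775424 to 2777097 on the plus strand, and *FBP1* (PAS_chr3_0868) is on chromosome 3 from 1692961 to 1694022 on the minus strand. *GUT1* (PAS_chr4_0783) is on chromosome 4 from 1483780 to 1485645 on the minus strand, and *JEN1* (PAS_chr3_0440) is on chromosome 3 from 856281 to 857939 on the plus strand. These are the coding gene models the reads were counted on. The lowest count behind any value was 31 reads for *JEN1*, 329 for *FBP1*, 345 for *PCK1* and 1476 for *GUT1*, so counting error limits only the lowest *JEN1* values.

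The genes covered different ranges of expression. *JEN1* had the widest, with group means from 1.31 RPKM on glucose at 15 min to 90.0 RPKM on glycerol at pH 8.2 and 60 min, a ratio of 68.5. *PCK1* ran from 11.9 to 159 RPKM, *FBP1* from 37.0 to 323 RPKM and *GUT1* from 53.6 to 438 RPKM, ratios of 13.4, 8.74 and 8.17. *GUT1* was the only one of the 4 genes for which every glucose library lay below every glycerol library, the highest glucose value being 87.9 RPKM and the lowest glycerol value 116 RPKM. The share of all genes separated in this way was not counted, and the same holds for the overlaps given below.

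**Figure D1:**
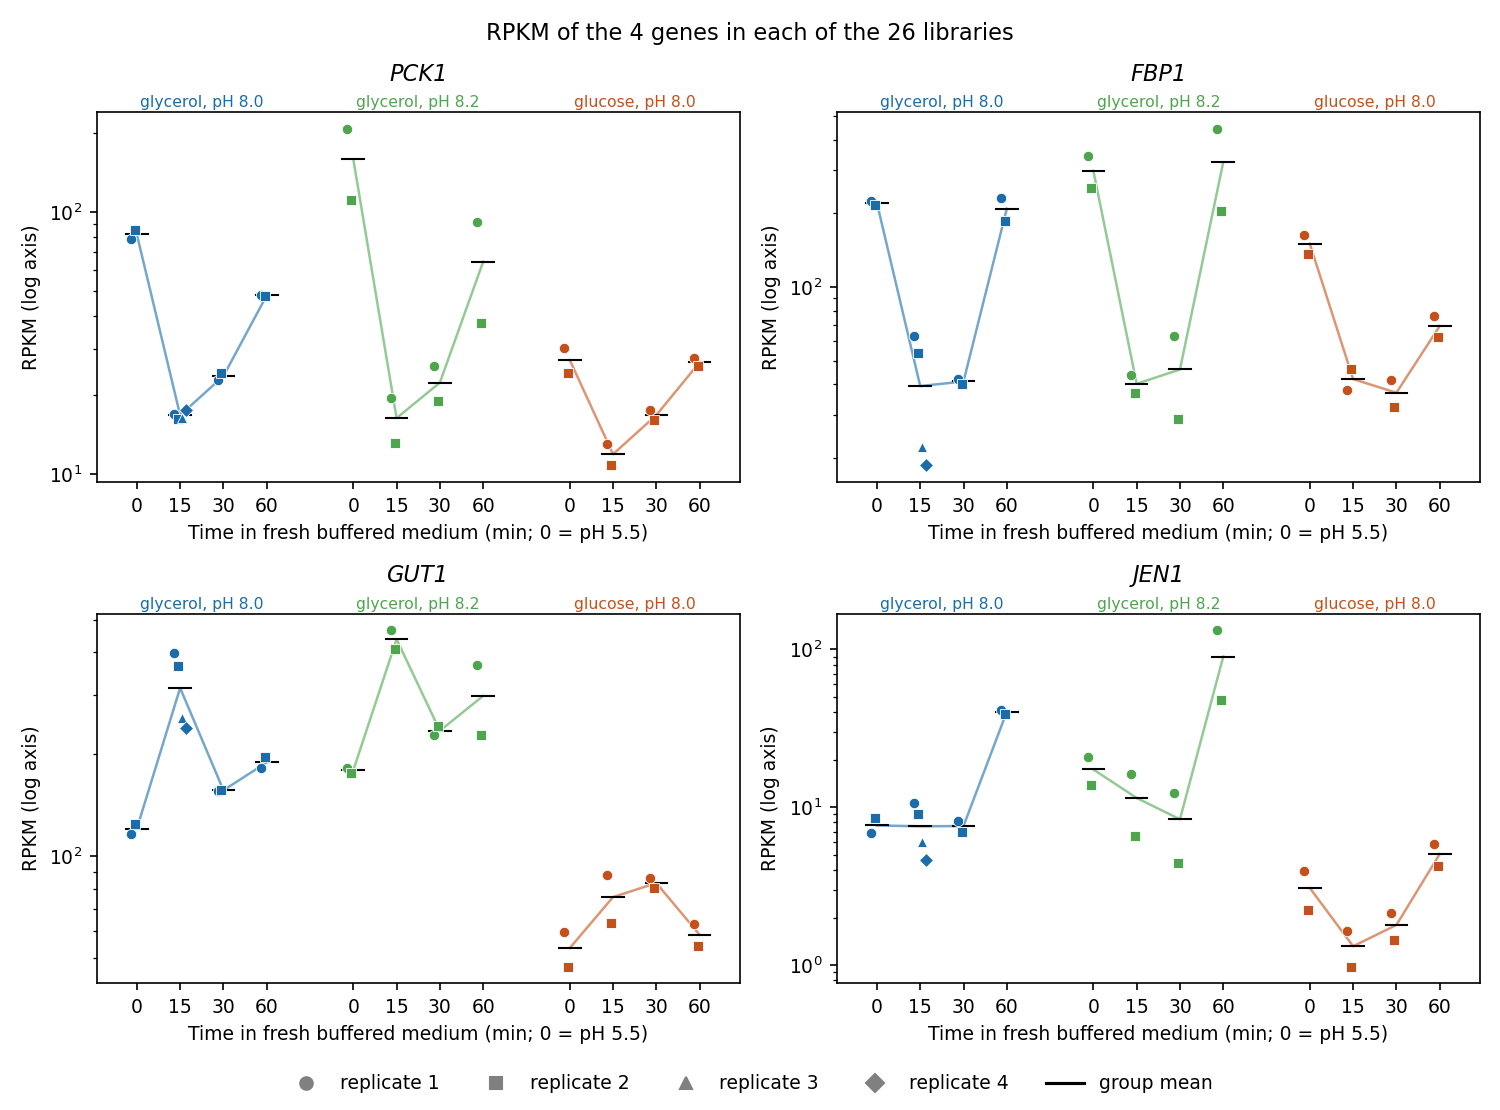
RPKM (log axis) of *PCK1*, *FBP1*, *GUT1* and *JEN1* against minutes in fresh buffered medium, where each point is a library, its shape the replicate number, the black bar the group mean and the colour the course. *GUT1* stayed at or below 87.9 RPKM in all glucose libraries and at or above 116 RPKM in all glycerol libraries, whereas every 15 and 30 min library lay below every time zero library of its course for *PCK1* and *FBP1*.

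*PCK1* fell within 15 min of the shift on both carbon sources and was higher again at 60 min, when its values overlapped those at time zero on glucose but not on glycerol. On glycerol at pH 8.0 the time zero libraries held 78.6 and 85.3 RPKM, the 4 libraries at 15 min 16.9, 16.2, 16.3 and 17.6 RPKM, those at 30 min 22.9 and 24.3 RPKM and those at 60 min 48.2 and 47.7 RPKM. In the pH 8.2 course the values were 207 and 111 RPKM at time zero, 19.5 and 13.1 at 15 min, 25.7 and 18.9 at 30 min and 91.5 and 37.5 at 60 min. On glucose they were 30.1 and 24.3 RPKM, then 12.98 and 10.8, 17.5 and 15.97, and 27.5 and 25.7. At 15 and 30 min every stressed library lay below every time zero library of its course, and at 60 min this still held on glycerol but not on glucose.

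The fall of *PCK1* at 15 min was 4.90-fold on glycerol at pH 8.0 (log2 difference -2.23, SE 0.25, limma adjusted p = 7.71e-07), 9.73-fold at pH 8.2 (-3.16, SE 0.29, adjusted p = 6.8e-08) and 2.29-fold on glucose (-1.13, SE 0.29, adjusted p = 0.00535). The glucose call at 15 min was lost without time zero replicate 1 (-0.98, adjusted p = 0.0583) or without 15 min replicate 2 (-1.003, adjusted p = 0.0549). At 30 min the glycerol values were still 3.47-fold lower at pH 8.0 (adjusted p = 9.49e-05) and 7.12-fold lower at pH 8.2 (adjusted p = 4.36e-07), and the glucose value of -0.66 did not pass (adjusted p = 0.0907). It passed when only the compared libraries were fitted (adjusted p = 0.00129), with the replicate number as a block (adjusted p = 0.0491) and with that block set within each course (adjusted p = 0.00165). At 60 min *PCK1* was still 1.71-fold lower on glycerol at pH 8.0 (-0.76, SE 0.29, adjusted p = 0.0395). That call was lost when any one of the 4 libraries compared was left out (-0.82 to -0.70, highest adjusted p = 0.143). At pH 8.2 it was 2.46-fold lower (-1.35, SE 0.29, adjusted p = 0.000669), and the value was -0.72 (adjusted p = 0.0337) without 60 min replicate 2. On glucose the 60 min difference was -0.02, with a 95% interval of -0.63 to 0.59.

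*FBP1* also fell within 15 min in each course, and on glycerol its 60 min values overlapped those of time zero. At pH 8.0 on glycerol it had 225 and 216 RPKM at time zero, 62.9, 53.7, 22.2 and 18.7 RPKM at 15 min, 42.2 and 40.01 RPKM at 30 min and 232 and 186 RPKM at 60 min. The pH 8.2 course held 344 and 253 RPKM, then 43.7 and 36.8, 63.1 and 29.0, and 442 and 205. On glucose *FBP1* had 163 and 137 RPKM, then 37.8 and 46.3, 41.7 and 32.3, and 76.0 and 62.5. The libraries at 15 and 30 min lay below time zero in each course, those at 60 min overlapped time zero on glycerol, and those at 60 min on glucose were still below it.

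At 15 min *FBP1* was 5.60-fold lower on glycerol at pH 8.0 (log2 difference -2.64, SE 0.39, limma adjusted p = 1.84e-05). It was 7.42-fold lower at pH 8.2 (-2.85, SE 0.45, adjusted p = 5.25e-05) and 3.57-fold lower on glucose (-1.81, SE 0.45, adjusted p = 0.00407). At 30 min the values were -2.40, -2.76 and -1.998, and they passed in all 3 courses (highest adjusted p = 0.00187). By 60 min the glycerol differences were -0.09 (95% interval -1.03 to 0.86) at pH 8.0 and 0.03 (-0.91 to 0.97) at pH 8.2. The glucose difference was -1.11 (95% interval -2.05 to -0.17) with an adjusted p of 0.0634, which did not pass, although it did in the fit on recovered reads (adjusted p = 0.0417), on the compared libraries alone (adjusted p = 2.34e-05), with the replicate block (adjusted p = 0.00165) and with the block by course (adjusted p = 0.000191). Between 15 and 60 min *FBP1* rose by 2.55 on glycerol at pH 8.0 (adjusted p = 2.12e-05) and by 2.88 at pH 8.2 (adjusted p = 1.95e-05), against 0.71 on glucose (adjusted p = 0.21), a value that passed in the last 3 of these fits (highest adjusted p = 0.0223).

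*GUT1* went the other way and was highest 15 min after the shift on glycerol. At pH 8.0 on glycerol it had 116 and 125 RPKM at time zero, 399, 365, 255 and 239 RPKM at 15 min, 156 and 157 RPKM at 30 min and 182 and 197 RPKM at 60 min. In the pH 8.2 course it had 182 and 177 RPKM, then 465 and 411, 228 and 242, and 367 and 228. On glucose it had 59.9 and 47.2 RPKM, then 87.9 and 63.6, 86.2 and 80.4, and 63.1 and 54.1. Every stressed glycerol library was above the time zero libraries of its course, and on glucose this held at 15 and 30 min.

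The rise of *GUT1* at 15 min was 2.60-fold on glycerol at pH 8.0 (1.34, SE 0.19, limma adjusted p = 1.15e-05) and 2.44-fold at pH 8.2 (1.28, SE 0.22, adjusted p = 0.000121), against 0.48 on glucose (adjusted p = 0.0938). The glucose value passed on the compared libraries alone and with either block (highest adjusted p = 0.0253). At 30 min the glycerol differences had shrunk to 0.37 and 0.39 and did not pass (adjusted p = 0.201 and 0.174). The pH 8.0 value passed on the compared libraries alone (adjusted p = 0.014) and with the block by course (adjusted p = 0.0379). The pH 8.2 value passed on the compared libraries alone (adjusted p = 0.0279), with the replicate block (adjusted p = 0.0499), with the block by course (adjusted p = 0.0293) and against all 4 glycerol libraries of time zero (0.67, adjusted p = 0.00694). The glucose difference was 0.64 (SE 0.22, adjusted p = 0.0311), a call that was lost without time zero replicate 2 (0.47, adjusted p = 0.239), without 30 min replicate 1 (0.59, adjusted p = 0.143) or without 30 min replicate 2 (0.69, adjusted p = 0.083). At 60 min *GUT1* was 1.57-fold above time zero at pH 8.0 (0.65, adjusted p = 0.0215) and 1.66-fold at pH 8.2 (0.69, adjusted p = 0.0119). The pH 8.0 call was lost without any one of time zero replicates 1 and 2 and 60 min replicate 2 (0.59 to 0.70, highest adjusted p = 0.11) and against all 4 glycerol libraries of time zero (0.36, adjusted p = 0.113), and the pH 8.2 call without time zero replicate 2 (0.67, adjusted p = 0.0558) or 60 min replicate 1 (0.35, adjusted p = 0.222).

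*JEN1* moved last. At pH 8.0 on glycerol it had 6.84 and 8.49 RPKM at time zero, 10.6, 9.03, 6.03 and 4.62 RPKM at 15 min, 8.21 and 6.99 RPKM at 30 min and 41.3 and 39.2 RPKM at 60 min. The pH 8.2 course held 20.8 and 13.9 RPKM, then 16.3 and 6.59, 12.3 and 4.44, and 132 and 48.0. On glucose the values were 3.92 and 2.23 RPKM, then 1.65 and 0.977, 2.15 and 1.44, and 5.89 and 4.21. The 60 min libraries were the highest of each course, and on glucose the 15 and 30 min libraries were all below time zero.

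At 60 min *JEN1* was 5.25-fold above time zero on glycerol at pH 8.0 (2.26, SE 0.46, limma adjusted p = 0.00059) and 5.19-fold at pH 8.2 (2.16, SE 0.46, adjusted p = 0.000599), and 1.64-fold on glucose, where the difference of 0.59 (95% interval -0.38 to 1.55) did not pass (adjusted p = 0.347). At 15 and 30 min no *JEN1* difference from time zero passed, with values of -0.07 and -0.01 on glycerol at pH 8.0, -0.65 and -1.08 at the higher pH, and -0.80 and -0.53 on glucose. Of these the pH 8.2 value at 30 min had the lowest adjusted p, 0.0692, and it was -1.73 (adjusted p = 0.0133) without 30 min replicate 1 and -0.43 (adjusted p = 0.577) without 30 min replicate 2. With the block by course *JEN1* passed at 15 min (adjusted p = 0.00589) and 30 min (adjusted p = 0.000102) at pH 8.2 and at all 3 times on glucose (highest adjusted p = 0.0247). The replicate block also called the 30 min value at pH 8.2 (adjusted p = 0.0108), and the fit on the compared libraries the 15 min value on glucose (adjusted p = 0.0402). Between 15 and 60 min *JEN1* rose in all 3 courses, by 2.32, 2.82 and 1.39 (highest adjusted p = 0.02). The glucose rise lost its call without 15 min replicate 2 (1.18, adjusted p = 0.13) or 60 min replicate 1 (1.19, adjusted p = 0.124), with a pseudocount of 5 (0.67, adjusted p = 0.127) and on recovered reads (1.98, adjusted p = 0.0838).

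**Figure D2:**
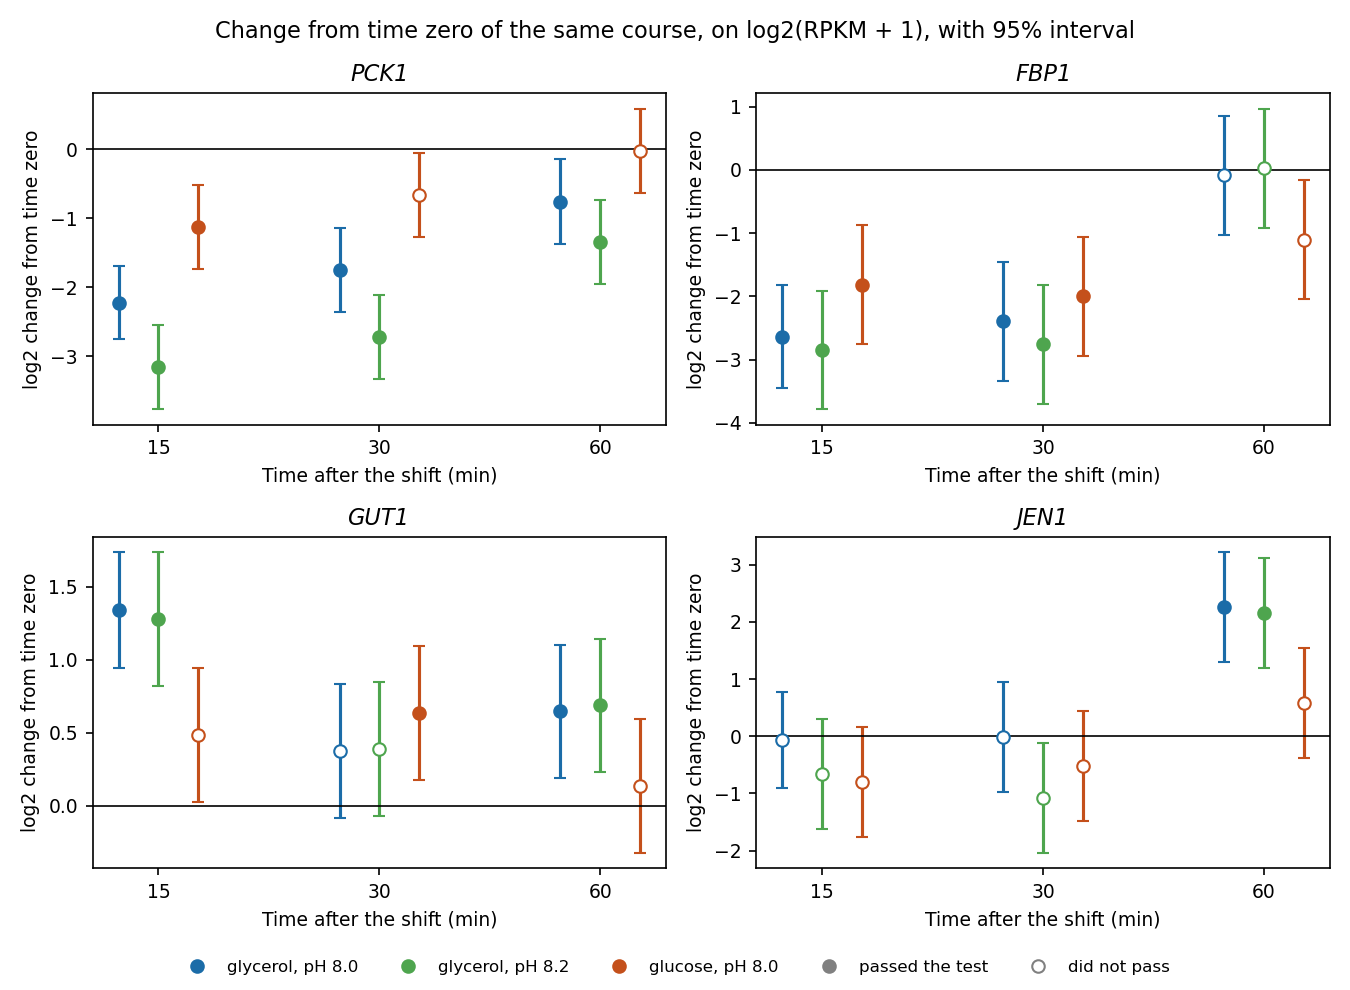
Log2 change from time zero of the same course, on log2(RPKM + 1), for *PCK1*, *FBP1*, *GUT1* and *JEN1* at 15, 30 and 60 min; points are limma estimates, bars 95% intervals, filled points passed the test and colours mark the course. *PCK1* and *FBP1* were lowest at 15 and 30 min (down to -3.16 and -2.85), *GUT1* was highest at 15 min on glycerol (1.34 and 1.28) and *JEN1* at 60 min on glycerol (2.26 and 2.16).

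Counted together, 3 of the 4 genes passed at 15 min on glycerol at pH 8.0, where 48.2% of all genes tested did, and 3 passed at pH 8.2, where 42.4% did. On glucose 2 passed at 15 min against 34.5% of all genes. At 30 min 2 passed in each course, *PCK1* and *FBP1* on glycerol and *FBP1* and *GUT1* on glucose, against 34.1% of all genes at pH 8.0 on glycerol, 39.5% at pH 8.2 and 33.2% on glucose. At 60 min 3 passed on glycerol at pH 8.0 (46.3% of all genes) and 3 at pH 8.2 (57.8%), while on glucose 0 of 4 passed by limma (34.5% of all genes). Of these 4, 1 gene, *FBP1*, had an unadjusted p under 0.05 on glucose (0.0236), and it alone passed on recovered reads. Leaving out single libraries changed the pH 8.0 count at 60 min to 1 without time zero replicate 1, time zero replicate 2 or 60 min replicate 2. On glucose it changed the 15 min count to 1 without time zero replicate 1 or 15 min replicate 2, and the 30 min count to 1 without time zero replicate 2 or either 30 min library. The genes were picked from a list of changed genes, so nothing is read from these shares.

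From 15 to 60 min all 4 genes passed on glycerol at pH 8.0, where 60.9% of all genes did, and at pH 8.2, where 64.8% did. *PCK1* rose by 1.47 (adjusted p = 7.32e-05) and 1.81 (adjusted p = 2.67e-05), the latter being 1.18 without 60 min replicate 1. *GUT1* was the only one of the 4 to fall, by 0.69 at pH 8.0 (adjusted p = 0.004) and by 0.59 at pH 8.2 (adjusted p = 0.0235). The pH 8.2 value was -0.25 (adjusted p = 0.393) without 60 min replicate 2, -0.50 (adjusted p = 0.116) without 15 min replicate 1 and -0.93 without 60 min replicate 1. On glucose *PCK1* (1.11, adjusted p = 0.00473) and *JEN1* passed, against 44.1% of all genes, and *GUT1* changed by -0.35 (adjusted p = 0.202).

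Before the shift, *PCK1*, *GUT1* and *JEN1* were lower on glucose than on glycerol. Against the 4 glycerol libraries of time zero, *PCK1* was 4.43-fold higher on glycerol (glucose minus glycerol -2.003, SE 0.25, limma adjusted p = 2.18e-05). *GUT1* was 2.80-fold higher (-1.45, SE 0.19, adjusted p = 3.03e-05) and *JEN1* 4.06-fold (-1.64, SE 0.40, adjusted p = 0.00661). *FBP1* had a glycerol mean 1.73 times that on glucose and did not pass (-0.77, 95% interval -1.58 to 0.05, adjusted p = 0.165), although the highest glucose library, 163 RPKM, lay below the lowest glycerol library, 216 RPKM. Thus 3 of 4 passed, where 22% of all genes did. *FBP1* passed on the compared libraries alone (adjusted p = 0.00106) and with the replicate block (adjusted p = 0.0132), and in both of these fits 4 of 4 passed. The *JEN1* value was -1.34 (adjusted p = 0.13) without glucose replicate 2 and -1.11 (adjusted p = 0.0687) against the pH 8.0 course's time zero alone. *PCK1* and *GUT1* passed against either glycerol group taken alone, *PCK1* at -1.56 (adjusted p = 0.000682) and -2.44 (adjusted p = 1.91e-05) and *GUT1* at -1.17 (adjusted p = 0.00072) and -1.74 (adjusted p = 3.14e-05).

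At 15 and 30 min *GUT1* and *JEN1* were again lower on glucose, while *PCK1* and *FBP1* did not pass. At 15 min at pH 8.0 *PCK1* differed by -0.47 (95% interval -0.99 to 0.06, adjusted p = 0.191) and *FBP1* by 0.27 (-0.55 to 1.08, adjusted p = 0.662), and at 30 min by -0.47 (adjusted p = 0.239) and -0.16 (adjusted p = 0.82). Fitted on the compared libraries alone, *PCK1* passed at 15 min (adjusted p = 0.00787) and 30 min (adjusted p = 0.0369) with the same values. In contrast, *GUT1* was 4.15-fold higher on glycerol at 15 min (-2.02, SE 0.19, limma adjusted p = 4.97e-07) and 1.88-fold at 30 min (-0.90, SE 0.22, adjusted p = 0.00766). *JEN1* was 5.76-fold higher on glycerol at 15 min (-1.85, SE 0.40, adjusted p = 0.00245) and 4.24-fold at 30 min (-1.63, SE 0.46, adjusted p = 0.0166). Thus 2 of 4 passed at each time, against 25.7% of all genes at 15 min and 23.8% at 30 min. The *GUT1* call at 30 min was lost without glycerol replicate 2 (-0.90, adjusted p = 0.0641) or glucose replicate 2 (-0.85, adjusted p = 0.0572), and that of *JEN1* without any one of the 4 libraries (-1.82 to -1.44, highest adjusted p = 0.112), so the count at 30 min was 0 or 1 without any one of them.

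At 60 min all 4 genes were lower on glucose, where 32.2% of all genes tested passed. *JEN1* was 7.97-fold higher on glycerol (-2.78, SE 0.46, limma adjusted p = 0.000503), *GUT1* 3.23-fold (-1.68, SE 0.22, adjusted p = 8.8e-05), *FBP1* 3.01-fold (-1.58, SE 0.45, adjusted p = 0.0139) and *PCK1* 1.80-fold (-0.83, SE 0.29, adjusted p = 0.0375). No glucose library overlapped a glycerol library for any of them, with 2 libraries on each side. The share of all genes free of such overlap was not counted, so nothing is read from this. *GUT1* and *JEN1* passed without any one of the 4 libraries. *PCK1* lost its call when any one of the 4 libraries was left out (-0.87 to -0.78, highest adjusted p = 0.155), and *FBP1* without glycerol replicate 1 (-1.42, adjusted p = 0.0641), glycerol replicate 2 (-1.74, adjusted p = 0.0638) or glucose replicate 2 (-1.44, adjusted p = 0.0911). Without any one of these 3 libraries 2 of 4 passed.

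The same contrast made against glycerol at pH 8.2, whose library codes begin with the same letter as those of glucose, gave the same calls for each gene at each time. At 15 min *GUT1* was at -2.53 (adjusted p = 1.66e-07) and *JEN1* at -2.32 (adjusted p = 0.00198), and at 30 min at -1.48 (adjusted p = 0.000237) and -1.62 (adjusted p = 0.0278). At 60 min *PCK1* was at -1.11 (adjusted p = 0.00722), *FBP1* at -2.11 (adjusted p = 0.00176), *GUT1* at -2.29 (adjusted p = 2.17e-06) and *JEN1* at -3.75 (adjusted p = 2.47e-05). This contrast, added after the data were seen, also differs in pH.

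**Figure D3:**
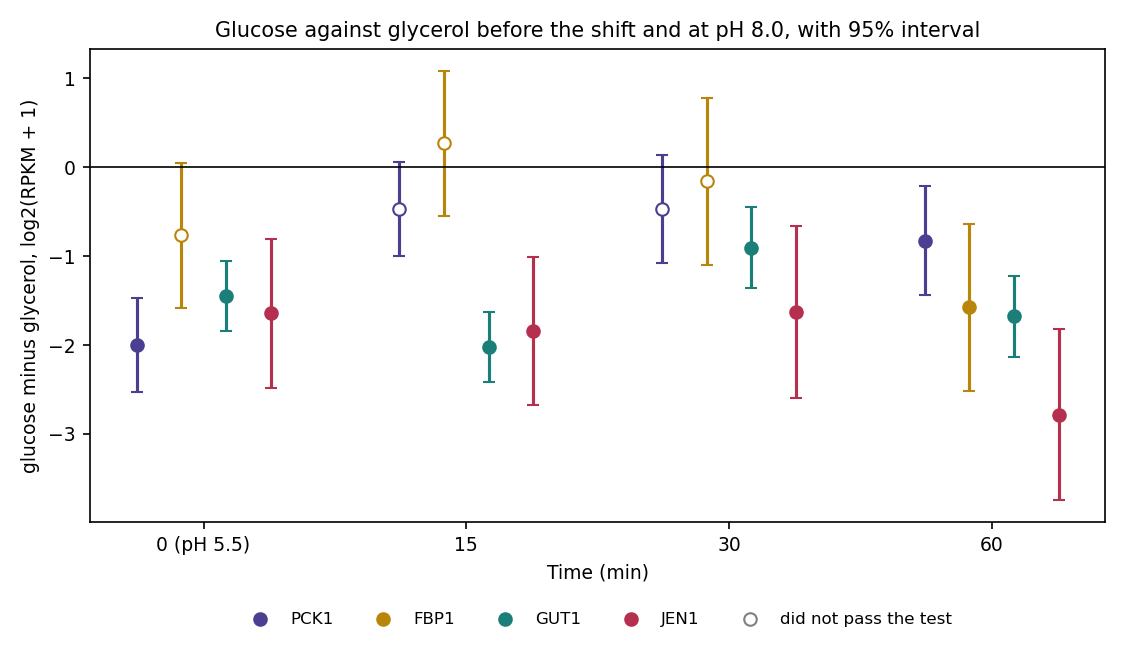
Glucose minus glycerol in log2(RPKM + 1) for *PCK1*, *FBP1*, *GUT1* and *JEN1* at time zero (pH 5.5, glucose against both glycerol groups) and after 15, 30 and 60 min at pH 8.0; points are limma estimates, bars 95% intervals and open points did not pass the test. *GUT1* and *JEN1* passed below 0 at each time, *PCK1* at 0 and 60 min and *FBP1* at 60 min (-1.58). *PCK1* at 15 and 30 min and *FBP1* at 0 and 30 min were also below 0 but did not pass.

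Whether the response to the shift itself differed between carbon sources was tested as the change on glucose minus the change on glycerol at pH 8.0. None of the 4 genes passed at 15, 30 or 60 min in the limma fit over all groups, where 6%, 1.29% and 5.9% of all genes did. The values nearest to the threshold were those of *GUT1* at 15 min (-0.86, SE 0.29, unadjusted p = 0.00818, adjusted p = 0.0833), *PCK1* at 15 min (1.10, SE 0.39, unadjusted p = 0.0102, adjusted p = 0.0943) and *JEN1* at 60 min (-1.67, SE 0.65, unadjusted p = 0.0189, adjusted p = 0.137). *PCK1* at 30 min (1.09) was the other value with an unadjusted p under 0.05 (0.0158). For *FBP1* at 60 min the 95% interval was -2.35 to 0.31. Fitted on the compared libraries alone, 1 gene passed at 15 min, 1 at 30 min and 3 at 60 min. These were *PCK1* at 15 min (adjusted p = 0.00249), 30 min (adjusted p = 0.00164) and 60 min (0.74, adjusted p = 0.00652), *FBP1* at 60 min (-1.02, adjusted p = 0.00221) and *JEN1* at 60 min (adjusted p = 0.00221). *GUT1* at 15 min passed without glycerol 15 min replicate 4 (-0.98, adjusted p = 0.0464). With the replicate number as a block, over all groups or within a course, the 15 min group on glycerol at pH 8.0 counts only by replicates 1 and 2. Numbers 3 and 4 occur in no other group. With the block by course, which treats same-numbered libraries of a course as one culture, 3 of the 4 passed at 15 min, 1 at 30 min and 3 at 60 min. These were *PCK1* (1.11, adjusted p = 0.00291), *GUT1* (-1.17, adjusted p = 0.0017) and *JEN1* (-1.12, adjusted p = 0.00856) at 15 min, *PCK1* at 30 min (adjusted p = 0.00724), and *JEN1* (adjusted p = 0.000746), *FBP1* (adjusted p = 0.0218) and *PCK1* (adjusted p = 0.031) at 60 min. The study sampled each stressed culture at 15, 30 and 60 min, but the labels do not say which libraries these were. Deviations of same-numbered libraries correlated at 0.111 to 0.351 in all 6 pairs of times on glucose, and at -0.037 to 0.628 on glycerol at pH 8.0. In the latter course the pairs that include 15 min were at -0.037, 0.08 and 0.008. The replicate block alone called *GUT1* at 15 min (adjusted p = 0.00346) and *JEN1* at 60 min (adjusted p = 0.0333), and all 4 glycerol libraries of time zero as the start called *PCK1* at 15 min (1.54, adjusted p = 0.0182) and 30 min (1.53, adjusted p = 0.0442).

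The difference between the change at pH 8.2 and that at pH 8.0 on glycerol passed the test for none of the 4 genes, and 0% of all genes passed at 15 min, 0% at 30 min and 0% at 60 min, although 587, 371 and 712 of the genes tested had an unadjusted p under 0.05. The fit on recovered reads called 0, 0 and 2 of all genes, and none of the 4. Of the 4 genes *PCK1* had the lowest limma p-values, at 15 min (-0.94, unadjusted p = 0.025, adjusted p = 0.364) and 30 min (-0.97, unadjusted p = 0.0291, adjusted p = 0.62). At 60 min *PCK1* was at -0.59, *FBP1* at 0.12, *GUT1* at 0.04 and *JEN1* at -0.09. Without 60 min replicate 1 of the pH 8.2 course *PCK1* passed at 60 min (-1.23, adjusted p = 0.0365). With the block by course *PCK1* (-0.92, adjusted p = 0.0277) and *JEN1* (-0.98, adjusted p = 0.046) passed at 15 min, where that block leaves replicates 1 and 2 alone at pH 8.0.

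The glycerol courses did not start level. At time zero, both at pH 5.5, *PCK1* was 0.88 higher on the log2 scale in the pH 8.2 course than in the pH 8.0 course (SE 0.29, limma adjusted p = 0.0459), and *FBP1* (0.42, adjusted p = 0.556), *GUT1* (0.57, adjusted p = 0.0777) and *JEN1* (1.06, adjusted p = 0.116) did not pass, so that 1 of 4 was called where 16.5% of all genes were. *GUT1* and *JEN1* passed on the compared libraries alone (adjusted p = 0.00527 and 0.0106) and with the replicate block (adjusted p = 0.0177 and 0.0284). The *PCK1* call rested on the libraries at hand, since its value was 0.43 (adjusted p = 0.435) without replicate 1 of the pH 8.2 course, 1.33 without its replicate 2, and 0.82 (adjusted p = 0.173) and 0.94 (adjusted p = 0.141) without replicates 1 and 2 of the pH 8.0 course. The library codes and the courses cannot be told apart here.

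Replicates of these genes disagreed more than those of most genes in parts of the design. In the pH 8.2 course replicate 1 was above replicate 2 for *PCK1*, *FBP1* and *JEN1* at all 4 times. On glucose replicate 1 was also above replicate 2 at all 4 times for *PCK1* (by 0.096 to 0.298), *GUT1* (0.099 to 0.461) and *JEN1* (0.371 to 0.608). In the pH 8.2 course the gap on the log2 scale was 1.27 for *PCK1*, 1.11 for *FBP1* and 1.44 for *JEN1* at 60 min. A gap at least as large, in either direction, was seen in 0.397%, 0.655% and 0.317% of all genes. At time zero of that course the gap of *PCK1* was 0.90, reached by 0.238% of genes. With replicate 1 alone in the pH 8.2 course *JEN1* rose by 2.61 at 60 min (adjusted p = 0.00015), and with replicate 2 alone by 1.72 (adjusted p = 0.00272). *GUT1* at 60 min rose by 1.008 with replicate 1 alone (adjusted p = 0.0126) and was at 0.37 with replicate 2 alone (adjusted p = 0.301).

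The 4 libraries of glycerol at pH 8.0 and 15 min split by replicate number for 3 of the genes. Replicates 1 and 2 were above replicates 3 and 4 by 1.47 for *FBP1*, 0.63 for *GUT1* and 0.78 for *JEN1*, gaps that 0.317%, 1.57% and 0.972% of all genes reached, whereas *PCK1* differed by -0.03. Replicates 1 and 2 carry the codes a9 and a10, and replicates 3 and 4 the codes a2 and a6, which fall within the run a1 to a8 of the other libraries of this course. With replicates 3 and 4 alone the change of *FBP1* at 15 min was -3.37 (adjusted p = 2.02e-07), and with replicates 1 and 2 alone it was -1.91 (adjusted p = 0.000103). The rise of *GUT1* was 1.03 (adjusted p = 0.000165) and 1.65 (adjusted p = 8.26e-07). Against replicates 3 and 4 alone *FBP1* was higher on glucose at 15 min (1.004, adjusted p = 0.0319), and against replicates 1 and 2 alone the difference was -0.47 (adjusted p = 0.322). *GUT1* between 60 and 15 min was at -0.38 (adjusted p = 0.0701) with replicates 3 and 4 alone. What sets these libraries apart was not tested.

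In the order of group means, neighbouring groups overlapped for most steps of *PCK1*, *FBP1* and *JEN1* but not of *GUT1*. Of the 11 steps between neighbours, 6 were free of overlap for *GUT1*, 5 for *PCK1*, 4 for *JEN1* and 3 for *FBP1*. For *GUT1* the 4 glucose groups came lowest, in the order time zero (53.6 RPKM), 60 min (58.6 RPKM), 15 min (75.8 RPKM) and 30 min (83.3 RPKM), with the first pair and the last pair overlapping. Both glycerol groups at 15 min came highest (314 and 438 RPKM, no overlap). For *PCK1* the lowest group was glucose at 15 min (11.9 RPKM) and the highest were both time zero groups on glycerol (81.9 and 159 RPKM), which did not overlap. For *FBP1* the 6 groups of 15 and 30 min filled the bottom between 37.0 and 46.0 RPKM, each overlapping the next, and the 5 groups of glycerol or glucose at time zero and glycerol at 60 min filled the top between 150 and 323 RPKM. For *JEN1* the glucose groups were again lowest (1.31 to 5.05 RPKM) and both glycerol groups at 60 min highest (40.2 and 90.0 RPKM), with the 6 other glycerol groups between 7.57 and 17.3 RPKM, each overlapping the next. On the scale of all genes, *GUT1* at time zero stood above 75.9% of genes on glycerol in the pH 8.0 course and above 52.0% on glucose, while *JEN1* stood above 3.37% and 0.794%.

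*PCK1* and *FBP1* followed each other across the 12 groups. The Pearson r of their group means of log2(RPKM + 1) was 0.896, and 0.119% of the other genes had a higher r with *PCK1*. Over all 12 groups *GUT1* had r = 0.103 with *PCK1* and -0.019 with *FBP1*. *JEN1* had r = 0.605 with *PCK1*, 0.641 with *FBP1* and 0.636 with *GUT1*. These values describe 12 means that share courses, libraries and growth conditions. They do not show how *GUT1* and *PCK1* moved within a course. By 15 min on glycerol the mean of *GUT1* rose from 121 to 314 RPKM at pH 8.0 and from 179 to 438 RPKM at pH 8.2. That of *PCK1* fell there from 81.9 to 16.7 RPKM and from 159 to 16.3 RPKM.

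**Figure D4:**
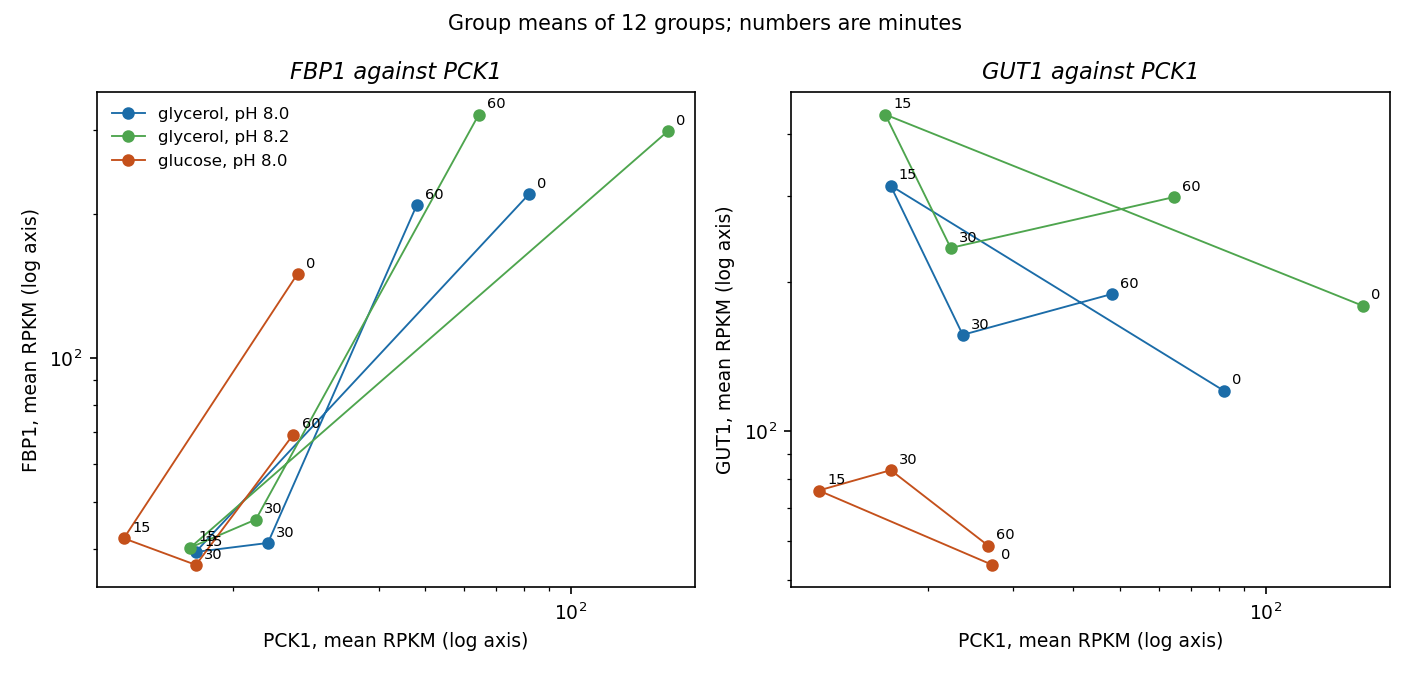
Mean RPKM of *FBP1* (left) and *GUT1* (right) against that of *PCK1* in the 12 groups, both axes logarithmic; lines join the times of a course in order and numbers give minutes. *FBP1* and *PCK1* moved down and up together (r = 0.896 over 12 group means of log2(RPKM + 1)), whereas *GUT1* was highest where *PCK1* was low on glycerol. Over all 12 groups, glucose included, *GUT1* and *PCK1* had r = 0.103.

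Genes with the most similar pattern were named by the highest Pearson r over the same 12 group means. For *PCK1* the first was *KGD2* (r = 0.964), which encodes a subunit of the mitochondrial alpha-ketoglutarate dehydrogenase, followed by PAS_chr2-1_0772 (0.943), PAS_chr1-4_0446 (0.913), PAS_chr2-1_0089 (0.912) and PAS_chr2-2_0195 (0.904). For *FBP1* they were C4R4H1 (0.946), C4QUZ2 (0.933), PAS_chr2-2_0180 (0.928), PAS_chr1-1_0200 (0.924) and *KGD2* again (0.921). For *GUT1* the first was PAS_chr3_0634 (0.943) and the next PAS_chr4_0784 (0.915), which is its neighbour on chromosome 4, on the opposite strand from 1487012 to 1487992, with 1366 bp between the gene models. The others were PAS_chr1-1_0490 (0.904), PAS_chr3_0579 (0.891) and C4R922 (0.876). For *JEN1* they were PAS_chr1-3_0036 (0.904), PAS_chr3_0286 (0.898), PAS_chr2-2_0407 (0.897), PAS_chr4_0504 (0.895) and PAS_chr2-2_0267 (0.89). Pearson r takes no account of the size of a change, and some of these genes changed little. On the log2(RPKM + 1) scale the group means of PAS_chr2-1_0772 ran from 5.32 to 5.69 and those of PAS_chr3_0634 from 6.87 to 7.33. Others ranged more widely, such as C4R922 with 3.11 to 6.15.

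A list of 14 further genes of gluconeogenesis, the glyoxylate cycle, glycerol use and synthesis, lactate or acetate use and their regulators was drawn from the product descriptions of the authors' list, so it too holds only genes already called changed after the shift in these samples. At 15 min in the glycerol course at pH 8.0, 4 of the 14 were higher and 7 lower than at time zero, where 21% of all genes tested were higher and 27.2% lower, with a median of -0.30 against -0.05 over all genes. *PYC2*, the pyruvate carboxylase that supplies oxaloacetate to *PCK1*, rose by 1.56 and *MDH3*, a malate dehydrogenase, by 0.72, both opposite to *PCK1* and *FBP1*. The malate synthase *MLS1* fell by 0.92, *CYB2*, the lactate dehydrogenase of the mitochondrial intermembrane space, by 0.88, and *VID24*, which in *S. cerevisiae* takes part in the breakdown of the *FBP1* product, by 1.33. The other regulators on the list, *ADR1* and C4R8H3, rose by 0.70 and 0.79. The C4R8H3 call was lost in limma-voom on recovered reads (adjusted p = 0.134). The glycerol transporter *STL1* (C4R6H9) fell by 0.63 and *GPD1*, the glycerol 3-phosphate dehydrogenase of glycerol synthesis, by 0.62, opposite to *GUT1*. *STL1* (C4QVV9) was at -0.61 and passed (limma adjusted p = 0.00425), and *STL1* (C4R6F4) was at -0.005 and did not pass.

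At 60 min in the same course 9 of the 14 were higher and 4 lower (29.5% and 16.8% of all genes), with a median of 0.43 against 0.08 over all genes. C4R8H3, annotated as a subunit of the glucose-repressed Hap CCAAT-binding complex, rose by 2.19 and *ADR1*, a carbon source-responsive transcription factor, by 1.09. *STL1* (C4QVV9) rose by 1.13 and *ATO2*, annotated as an acetate transporter, by 0.88, as did *JEN1*, whereas the gene named *LYP1*, which carries the same description as *ATO2*, fell by 0.92. The *STL1* genes did not move together, since C4R6F4 rose by 0.39 and C4R6H9 fell by 0.30, both past the test. On glucose at 15 min 3 were higher and 7 lower (14.1% and 20.4% of all genes), and at 60 min 3 were higher and 6 lower (23.4% and 11.1%). The *STL1* genes C4R6F4 and C4R6H9 fell there by 1.60 and 1.59 at 15 min.

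Between carbon sources at time zero 5 of the 14 were higher on glucose and 1 lower, where 9.44% of all genes were higher and 12.5% lower. The count of 6 was 3 without replicate 1 of the pH 8.2 course, without glucose replicate 2 or against the pH 8.0 course's time zero alone. All 3 *STL1* genes were among the higher ones, opposite to *GUT1*, with the largest differences at C4R6H9 (0.91, SE 0.09, limma adjusted p = 1.94e-06) and C4R6F4 (0.84, SE 0.13, adjusted p = 0.000162). At 60 min 0 were higher and 7 lower on glucose (15.3% and 17% of all genes), the same direction as all 4 genes, and without glucose replicate 2 the count was 4. The largest of these differences were those of C4R8H3 (-1.29, SE 0.31, adjusted p = 0.00598), which was -1.15 (adjusted p = 0.0575) without glucose replicate 2, *ADR1* (-0.98, SE 0.16, adjusted p = 0.000363) and *ATO2* (-0.95, SE 0.19, adjusted p = 0.00144). In the change on glucose minus the change on glycerol, 0 of the 14 passed as positive at any time (2.09%, 0.219% and 2.86% of all genes), and 2, 2 and 6 passed as negative at 15, 30 and 60 min (3.91%, 1.07% and 3.04% of all genes). The count at 15 min was 4 without glycerol 15 min replicate 3, and that at 60 min was 3 without glycerol time zero replicate 1 or glucose 60 min replicate 2. Comparisons that share time zero libraries are not independent of each other.

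**Figure D5:**
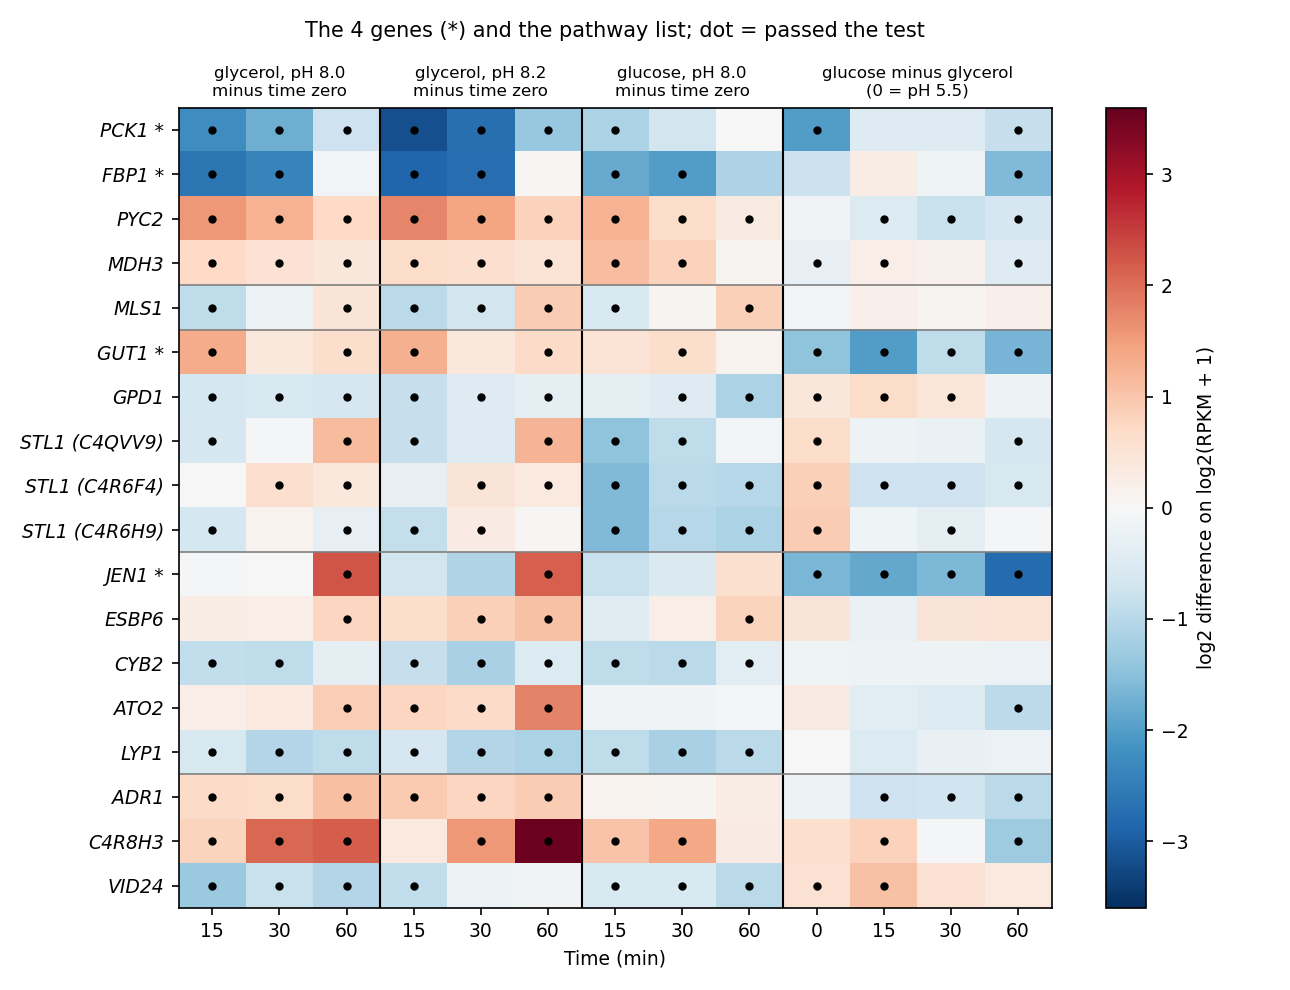
Log2 differences on log2(RPKM + 1) for *PCK1*, *FBP1*, *GUT1*, *JEN1* (starred) and the 14 list genes by role, from left to right the changes from time zero in the 3 courses at 15, 30 and 60 min and glucose minus glycerol at 0, 15, 30 and 60 min; red is higher, blue lower and a dot marks values that passed the test. *PYC2* and *MDH3* were higher at 15 min where *PCK1* and *FBP1* were lower, and 7 list genes were lower on glucose at 60 min along with all 4 starred genes.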

How the data were processed

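Poly-A RNA of 26 *K. phaffii* samples was sequenced as single reads from libraries that do not keep strand. The authors aligned the reads with Bowtie2 to the strain GS115 genome, counted them over 5040 gene models with SeqMonk and deposited the result as RPKM per library. The authors also deposited a table of log2 fold changes for the genes they called changed with DESeq2 (versions not given in the sources used here). Its gene names and descriptions were used and its values were not. No column belonged to other samples (0).

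RPKM values multiplied by gene length came out as whole reads in 100.0% of cases (within 0.05 of a read), which gave the read totals. The 4 genes were taken in every group. Genes with at least 1 RPKM in at least 2 libraries were kept (5034 kept, 6 left out). log2(RPKM + 1) was fitted with limma 3.58.1 in R 4.3.3, with 1 mean per group over the 12 groups, 14 residual degrees of freedom and trended variance moderation, and p-values were adjusted by Benjamini-Hochberg within each comparison over all genes kept. All groups shared one estimate of the spread, since most hold 2 libraries. An adjusted p under 0.05 was a call, and intervals are 95%. The fit was tested on simulated data.

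Replicate numbers recur across groups, and each stressed culture was sampled at 3 times, but the labels do not say which libraries share a culture, so libraries were not treated as paired in the reported fit. Alternatives were pseudocounts of 0.1 and 5, no filter, a mean of at least 5 RPKM, median-ratio scaling, limma-voom on the recovered reads, replicate blocks (by number, or by number within a course), only the libraries compared, other sets of time zero libraries and leaving out each library. Settings by replicate number within a group, by single time zero group and against glycerol at pH 8.2, and the comparison of the time zero groups, were added after the data were seen. Beside the 4 genes, the plan was to name at most 2 list genes per role with the largest change among those that passed. The text also names other list genes, among them a *STL1* gene that did not pass, and leaves out some that passed. The 5 genes most alike to each of the 4 are named too. The 4 genes and the lists were chosen with earlier results of these data known. Chromosome positions are those of the deposited table, which match RefSeq ASM2700v1 for all 5040 genes. No sequence was used here.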

Additional observations from a re-analysis of the deposited data

Results flagged for a closer look

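The change after the shift differed between carbon sources for some genes of the pathway list, by the limma test of the change on glucose minus the change on glycerol at pH 8.0, with 2 libraries per group (4 at 15 min on glycerol). *STL1* (C4R6F4), described as a glycerol proton symporter, had a difference of -1.591 at 15 min, -1.582 at 30 min and -1.408 at 60 min. *STL1* (C4R6H9) had -0.957, -1.128 and -0.843 at these times, and *STL1* (C4QVV9) had -1.227 at 60 min. At 60 min C4R8H3, the Hap complex subunit, had -1.888, *ATO2* -0.950 and the transcription factor *ADR1* -0.816. None of *PCK1*, *FBP1*, *GUT1* and *JEN1* passed in this fit. In limma-voom on recovered reads the C4R8H3 call at 60 min was lost (-2.019, adjusted p = 0.0743). The list genes were chosen by the authors for changing in these samples.

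The *STL1* differences passed without any one library (highest adjusted p = 0.0453). Those of C4R8H3, *ATO2* and *ADR1* lost their call without 4, 6 and 7 of the 8 libraries compared, with ranges of -2.091 to -1.685, -1.145 to -0.756 and -1.107 to -0.524 and highest adjusted p-values of 0.0722, 0.164 and 0.184.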

How the results depend on the processing

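Depth limited only the lowest *JEN1* values, and the number of libraries, 2 in most groups, limits the precision. Scaling by median ratios moved the median of all genes by over 0.1, from 0.127 to 0.008 for the pH 8.2 course at 60 min and, between 15 and 60 min, from 0.182 to -0.004 in that course, from 0.111 to -0.011 on glycerol at pH 8.0 and from 0.128 to -0.013 on glucose, and no called value of the 4 genes changed direction. Every value of the 4 genes that crossed 0 under an alternative had not passed. In the change at pH 8.2 minus that at pH 8.0, taking all 4 glycerol libraries of time zero as the start cancels time zero. It then compares levels at pH 8.2 and pH 8.0, between courses that did not start level. These level differences were 0.209 at 15 min and 0.058 at 30 min for *FBP1* and 0.509 at 15 min for *GUT1*. They were 0.477 at 15 min and 0.970 at 60 min for *JEN1* and 0.285 at 60 min for *PCK1*. In the change on glucose minus that on glycerol, that start gave 0.014 for *JEN1* at 30 min. With replicates 3 and 4 alone at 15 min on glycerol at pH 8.0, *FBP1* was at 0.525 and *GUT1* at 0.252 in the 15 min pH contrast. With replicate 1 alone of the pH 8.2 course *GUT1* was at 0.008 at 15 min and -0.054 at 30 min and *JEN1* at 0.349 at 60 min. With replicate 2 alone *FBP1* was at -0.216 and *GUT1* at -0.279 in the 60 min pH contrast and *FBP1* at -0.302 in the pH 8.2 change at 60 min. Median-ratio scaling gave -0.093 for that *FBP1* change and -0.005 for *GUT1* in the 60 min pH contrast, and a pseudocount of 5 gave 0.109 for *JEN1* there. With replicates 1 and 2 alone at 15 min on glycerol at pH 8.0, and with a replicate block, *FBP1* was at -0.465 between carbon sources and *JEN1* at 0.322 against time zero, the latter also with a block within each course. The causes were not tested.

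The replicate block moved the count of the 4 genes that passed from 0 to 1 in the change on glucose minus that on glycerol at 15 and 60 min and in the glucose change at 60 min, from 2 to 4 in the pH 8.2 change at 30 min and from 1 to 3 between the time zero groups. A replicate block within each course gave 2 in the pH contrast at 15 min, 3, 1 and 3 in the carbon source contrast of changes at 15, 30 and 60 min, 4, 4 and 2 in the glucose changes, 4 in the glucose rise from 15 to 60 min and 4 in the pH 8.2 change at 30 min. Deviations of same-numbered libraries between the times of a course had correlations of 0.111 to 0.351 on glucose, -0.037 to 0.628 on glycerol at pH 8.0 and 0.066 to 0.701 at pH 8.2. Fitted on the compared libraries alone, 1, 1 and 3 passed in the carbon source contrast of changes, 4 in the glucose change at 15 min, 1 in that at 60 min and 3 between the time zero groups. All 4 glycerol libraries of time zero gave 1 at 15 and 1 at 30 min in the contrast of changes, and replicates 1 and 2 alone gave 1 at 15 min. In the pH contrast replicate 1 alone gave 1 at 15 and 30 min and replicate 2 alone gave 1 at each time, and replicate 1 alone gave 2 between the time zero groups. Reads in place of RPKM and a pseudocount of 5 each gave 1 between carbon sources at 30 min and 1 in the glucose rise from 15 to 60 min, reads gave 1 in the glucose change at 60 min, and median-ratio scaling gave 0 between the time zero groups.

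Leaving out single libraries gave, for values that crossed 0, ranges in the pH contrast at 15, 30 and 60 min of -0.493 to 0.073, -0.908 to 0.189 and -0.437 to 0.669 for *FBP1* and of -0.181 to 0.065, -0.038 to 0.062 and -0.301 to 0.384 for *GUT1*, of -1.179 to 0.009 at 15 min and -0.813 to 0.627 at 60 min for *JEN1*, and of -1.226 to 0.041 at 60 min for *PCK1*. Between carbon sources *FBP1* ran from -0.015 to 0.552 at 15 min and from -0.340 to 0.022 at 30 min. Against time zero *FBP1* ran at 60 min from -0.247 to 0.074 at pH 8.0 and from -0.523 to 0.583 at pH 8.2, and *JEN1* at pH 8.0 from -0.232 to 0.116 at 15 min and -0.146 to 0.130 at 30 min. On glucose at 60 min *PCK1* ran from -0.171 to 0.127 and *GUT1* from -0.035 to 0.302. The counts that passed ran from 0 to 1 in the pH contrast at 60 min, the contrast of changes at 15 min, between carbon sources at 30 min and between the time zero groups, from 2 to 3 at 60 min and 2 to 3 at time zero between carbon sources, from 1 to 2 in the glucose changes at 15 and 30 min, its rise to 60 min and the pH 8.0 change at 60 min, and from 2 to 3 in the pH 8.2 changes at 30 and 60 min.

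Over all genes the count called between carbon sources was 1105 at time zero (328 to 1709 over the alternatives), 1292 at 15 min (611 to 1396), 1198 at 30 min (216 to 1558) and 1623 at 60 min (394 to 1710). It was 302 (143 to 574), 65 (64 to 164) and 297 (286 to 584) in the contrast of changes where each group kept at least 2 libraries. These counts, and the 832 between the time zero groups (up to 1188), fell lower still without some single libraries. In the pH contrast the count was 0, with up to 320, 931 and 736 in the setting that compares levels (all 4 time zero libraries). The lowest count was 1592 of 2426 at 15 min on glycerol at pH 8.0, 1249 of 2132, 1316 of 1988 and 1797 of 2910 in the pH 8.2 changes, and 1136 of 1736 and 1107 of 1737 at 15 and 60 min on glucose.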
